A study of Mus musculus with 90 samples.

Results

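The 10 genes described here are the germ cell and meiotic genes Sycp1, Sycp3, Dmrt1, Dazl, Ddx4, Mael, Stk31, Stra8, Tex101 and Prdm1. They were taken by name from the deposited gene counts, and all 10 were found among the 24961 genes of the embryoid body table and the 24984 genes of the neural progenitor table. J1 mouse embryonic stem (ES) cells carrying different forms of the Polycomb protein CBX7 were differentiated along both routes, and RNA without its ribosomal fraction was sequenced in 90 libraries of 30 groups, with 3 libraries a group. The groups are wild type (WT), CBX7-CaPS, which carries the compaction and phase separation domain of CBX2, CBX7-mCaPS, which carries that domain in mutated form, CBX7 KO, and CBX7-CaPS-R, which the labels do not explain further. The stem cells of every line (day 0) grew on mouse embryonic fibroblast feeders with LIF and serum, and the feeders were removed before differentiation. For embryoid bodies, cells hung in drops for 4 days and then went into suspension, with collection on days 6 and 10. For neural progenitors, aggregates were kept for 4 days without LIF, retinoic acid was then added to 5 uM, and cells were collected on days 6 and 8. The labels do not say how many clones each line represents, nor whether the 3 libraries of a group came from separate cultures, so p-values measure the spread between libraries, which may be technical.

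Germ cells share a set of genes that somatic cells keep silent. SYCP1 and SYCP3 build the synaptonemal complex that joins homologous chromosomes in meiosis, STRA8 is the retinoic acid-induced switch into meiosis, DAZL and DDX4 (the mouse Vasa helicase) bind RNA in germ cells, and MAEL and STK31 belong to the piRNA and germ granule machinery. DMRT1 is a transcription factor of the gonad, TEX101 is a surface glycoprotein of germ cells, and PRDM1 (BLIMP1) is a transcriptional repressor that specifies primordial germ cells and is also active in embryonic endoderm. In mouse ES cells, promoters of many germ cell genes are held by DNA methylation and by a variant Polycomb complex (PRC1.6) whose subunits MGA and MAX recognise the E-box CACGTG and E2F6 recognises an E2F motif. CBX7 belongs to the canonical Polycomb complexes, which read histone H3 lysine methylation instead.

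Promoter sequences are shown for the members that hold the E-box bound by MGA and MAX, and for Stra8. Whether the motifs go with the changes over time was not tested. Ddx4, Mael and Stk31, called lower on the last day of both routes in WT, each hold an E-box. Dazl and Tex101, called lower in WT embryoid bodies, and Prdm1, called lower in WT neural progenitors, hold none of the motifs searched. Sycp1 holds an E-box and an E2F motif and was not called over time. Sycp3 holds 2 E-boxes and an E2F motif and was not called on the last day of either route in WT. RefSeq promoter entries (GRCm38.p6) were found for 9 of the 10 genes, all except Dmrt1, and were searched on both strands over 300 bases, from 250 before to 50 after the start. The E-box CACGTG was present in 5 of the 9 genes (Sycp1, Sycp3, Ddx4, Mael and Stk31), compared with 7.15% of the 32851 RefSeq promoter entries. The E2F motif TCCCGC was present in 4 of the 9 (Sycp1, Sycp3, Ddx4 and Mael), compared with 20% of entries. The nuclear receptor element AGGTCA occurred in 2 of the 9 (Sycp3 and Stra8), compared with 16.3% of entries, and GGGTCA in none of the 9, compared with 13.7%. These motifs do not overlap one another in the 9 genes, a match is a description of the letters, and no binding was measured. The 250 bases before the start are printed 5′ to 3′ on the strand of the gene, with each match in that stretch in capitals. The E2F motif of Sycp1, at 3 to 8, and the second E2F motif of Mael, at 12 to 17, lie after the start and are not printed.
Sycp3 (chr10:88459337-88459586, plus strand): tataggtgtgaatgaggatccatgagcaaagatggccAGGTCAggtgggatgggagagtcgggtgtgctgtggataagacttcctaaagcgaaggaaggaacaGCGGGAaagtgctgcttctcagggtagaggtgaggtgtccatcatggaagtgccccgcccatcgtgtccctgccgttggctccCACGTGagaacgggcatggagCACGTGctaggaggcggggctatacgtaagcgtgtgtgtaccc
Ddx4 (chr13:112652311-112652560, minus strand): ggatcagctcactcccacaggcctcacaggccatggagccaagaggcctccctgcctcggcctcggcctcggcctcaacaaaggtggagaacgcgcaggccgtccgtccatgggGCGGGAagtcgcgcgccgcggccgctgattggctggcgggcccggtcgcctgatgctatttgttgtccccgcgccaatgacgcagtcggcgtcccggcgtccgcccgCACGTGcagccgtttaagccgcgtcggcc
Mael (chr1:166238745-166238994, minus strand): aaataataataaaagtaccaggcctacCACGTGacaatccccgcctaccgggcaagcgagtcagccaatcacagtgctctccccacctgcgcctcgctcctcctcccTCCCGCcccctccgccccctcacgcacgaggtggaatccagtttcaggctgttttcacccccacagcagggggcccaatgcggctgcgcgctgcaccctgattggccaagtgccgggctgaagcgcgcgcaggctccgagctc
Stk31 (chr6:49395289-49395538, plus strand): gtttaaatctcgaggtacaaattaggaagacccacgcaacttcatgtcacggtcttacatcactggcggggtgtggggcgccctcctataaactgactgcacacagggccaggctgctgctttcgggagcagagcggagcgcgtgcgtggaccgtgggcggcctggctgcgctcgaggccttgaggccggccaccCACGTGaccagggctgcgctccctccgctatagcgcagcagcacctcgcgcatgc
Sycp1 (chr3:102936101-102936350, minus strand): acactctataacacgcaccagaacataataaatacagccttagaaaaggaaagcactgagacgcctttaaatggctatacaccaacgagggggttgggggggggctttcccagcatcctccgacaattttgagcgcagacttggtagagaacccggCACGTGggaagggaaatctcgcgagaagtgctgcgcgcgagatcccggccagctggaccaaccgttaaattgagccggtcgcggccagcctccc
Stra8 (chr6:34920698-34920947, plus strand): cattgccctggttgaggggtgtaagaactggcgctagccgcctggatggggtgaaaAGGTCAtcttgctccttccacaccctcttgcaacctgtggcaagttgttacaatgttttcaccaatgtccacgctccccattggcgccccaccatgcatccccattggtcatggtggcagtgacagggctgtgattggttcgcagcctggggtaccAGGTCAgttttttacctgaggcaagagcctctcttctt

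In Sycp3 the E-boxes lay at -64 to -59 and at -43 to -38 from the start, in Sycp1 at -94 to -89, in Ddx4 at -29 to -24 and in Mael at -223 to -218. Stk31 has 2 promoter entries. Its E-box lay at -55 to -50 in the first, which is printed, and at -120 to -115 in the second. The start of the second entry is that of the deposited gene. In the deposited table (mm10), the genes whose promoters are not printed lay at chr19:25505706-25604328 (Dmrt1, 5 exon intervals, plus strand), chr17:50279393-50293620 (Dazl, 11, minus), chr7:24668012-24672050 (Tex101, 6, minus) and chr10:44437174-44458748 (Prdm1, 7, minus). The AGGTCA elements of Stra8 lay at -194 to -189 and at -38 to -33. The map of promoter motifs, which draws the first entry of Stk31, shows the E-box of 4 of the 5 genes within 100 bases of the start. From the second start of Stk31, its E-box lies further away than that.

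**Figure D1:**
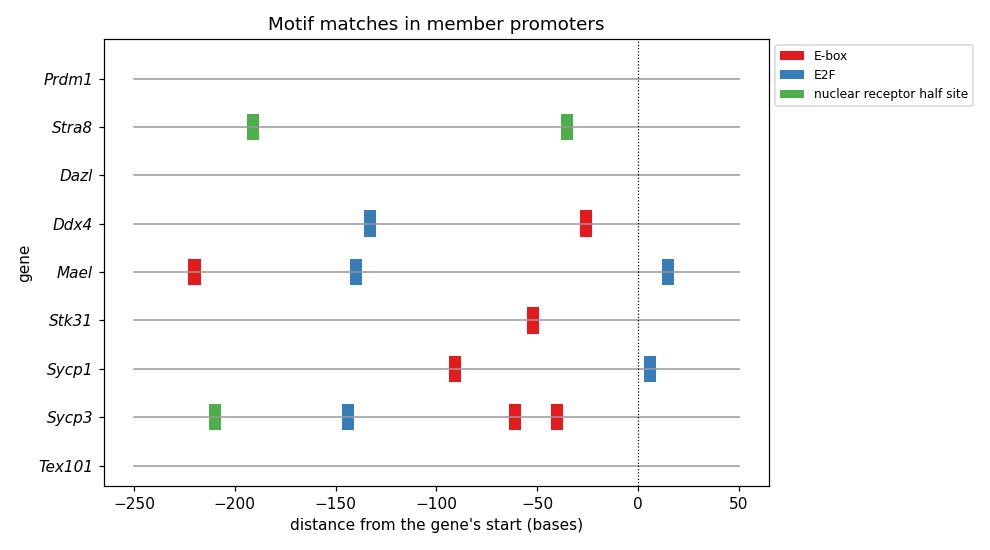
Positions of motif matches on either strand in the promoters of 9 members, in bases from the annotated start (x axis), with 1 row per gene. Each mark is a match of the E-box, the E2F motif or the nuclear receptor element, as coloured in the legend. The E-box appears in 5 genes, and Stra8 carries nuclear receptor elements only. Stk31 is drawn from the first of its 2 promoter entries.

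The deposited counts summed to between 10601858 and 55886291 per library in the embryoid body table and between 11830340 and 59295504 in the neural progenitor table. The ribosomal RNA gene Rn45s took 2.73% to 88.7% of counts in the former and 4.24% to 50.3% in the latter, and 3 counts were worth 0.039 to 0.51 CPM (counts-per-million after TMM scaling) and 0.05 to 0.24 CPM. The highest Rn45s share was in the mCaPS day 0 embryoid body library of replicate 3. Replicate 1 of WT and of CaPS stood apart from the other replicates on all 3 embryoid body days, and results that rest on these libraries are given with and without them. Of the gene counts from 1 to 20, 42.1% to 43.5% were even numbers in these libraries, against 73.5% to 94.1% in the others of that route. The cause was not tested, and where even counts prevail, 3 counts may not be 3 independent reads. CBX7-CaPS-R was counted in tables of its own with 20823 and 20930 genes, so line and table cannot be told apart. Cbx7 RNA in the line labelled KO was not called against WT on any day by edgeR's test (log2 differences from -0.47 to 1.05), so counts over the whole gene do not check that label. The naive pluripotency markers Nanog, Esrrb and Zfp42 were detected in the day 0 groups. Of 10 genes of gonad somatic cells, Fshr, the follicle stimulating hormone receptor, alone had no counts in WT at any day. The tested genes of that list summed in WT to 19.3 to 25.4 CPM on day 0 and 20.6 to 73.5 CPM on day 10 of embryoid bodies. On the neural progenitor route their WT sums were 22.5 to 32.6 CPM on day 0 and 172 to 223 CPM on day 8. The day 0 libraries also held transcripts of 16 fibroblast genes, whose summed level in WT was 658 to 4850 CPM before embryoid bodies and 532 to 4620 CPM before neural progenitors.

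All 10 members were detected in undifferentiated WT cells, at low levels. Per kilobase of exon, the WT day 0 embryoid body means in RPKM (CPM divided by exon length, mean ± SD, n = 3) ran from 5.4 ± 1.77 for Dmrt1, 3.78 ± 0.459 for Ddx4, 3.3 ± 2.18 for Sycp3 and 3.04 ± 0.94 for Prdm1 down to 0.787 ± 0.332 for Stra8, 0.783 ± 0.293 for Dazl and 0.281 ± 0.146 for Tex101. Mael (2.46 ± 0.967), Stk31 (1.93 ± 0.56) and Sycp1 (1.33 ± 0.235) lay between. Neighbours in this order differed by less than the larger of their SDs, except Stk31 and Sycp1, Sycp1 and Stra8, and Dazl and Tex101. In bulk RNA, fewer cells expressing a gene and less RNA per cell cannot be told apart, so these levels do not say how many cells carried the transcripts. Sycp3 overlaps Chpt1 on the other strand, Dmrt1 overlaps Mir3084-1, Snora19 and Gm38437, and Tex101 overlaps Mir684-1. The strand setting of the counting is not given in the sources used here, so these 3 genes are the less certain ones.

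The first question is what happened to the germ cell genes as WT embryoid bodies formed. The RNA-binding and germ granule genes Ddx4, Mael, Stk31 and Dazl, the transcription factor Dmrt1 and the surface protein gene Tex101 were lower on day 10 than on day 0, while Sycp1, Sycp3, Stra8 and Prdm1 did not pass the test. No member passed on day 6 (background 7.88% of 17791 genes; edgeR gave 1 member at an unadjusted p under 0.05 and DESeq2 called 0). On day 10, 6 of 10 members were called, all lower, where 29.2% of all genes were called and 14.5% were called lower. The median log2 change of the members was -2.26, against -0.02 over all genes. Each adjusted p comes from edgeR's quasi-likelihood test with Benjamini-Hochberg adjustment over all tested genes, here in 1 fit of the 36 libraries of the route, and a member is called at an adjusted p under 0.05.

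Ddx4 counted 10, 12.3 and 10 CPM in the WT day 0 libraries, 16.9, 11.3 and 14.8 CPM on day 6, and 0.979, 0.902 and 3.1 CPM on day 10. The day 10 libraries did not overlap either earlier day, and the log2 change from day 0 was -2.67 ± 0.53 (SE; adjusted p = 0.00038). Stk31, which encodes a Tudor domain protein with a kinase-like region, went from 8.07, 4.42 and 6.29 CPM to 0.534, 0.471 and 0.525 CPM on day 10, a log2 change of -3.61 ± 0.71 (adjusted p = 0.000308). Both genes fell in every refit that left out a library. Mael, a piRNA pathway gene, stood at 5.34, 3.68 and 2.36 CPM on day 0, at 13.2, 5.58 and 8.75 CPM on day 6 and at 0.178, 0.314 and 1.39 CPM on day 10. Its highest levels were on day 6, its day 10 libraries lay below all others, and the change from day 0 was -2.52 ± 0.78 (adjusted p = 0.0151). With the replicate number as a block, which fits these libraries, the rise of Mael on day 6 was called (log2 1.27, adjusted p = 0.0469; 1.28 ± 0.72 and 0.334 without the block).

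Dazl, the RNA-binding protein that licenses germ cells for gametogenesis, counted 3.32, 1.75 and 1.9 CPM on day 0, 7.48, 1.23 and 4.99 CPM on day 6, and 0.623, 0.392 and 0.499 CPM on day 10. Days 0 and 6 overlapped and day 10 lay below both. The change from day 0 was -2.19 ± 0.72 (adjusted p = 0.0208). Dmrt1 had 16.6, 11.1 and 8.83 CPM on day 0, 20.4, 7.29 and 24.5 CPM on day 6, and 0.89, 1.96 and 4.73 CPM on day 10, a log2 change of -2.24 ± 0.56 (adjusted p = 0.0033). Tex101 was close to the detection limit, with 0.119, 0.372 and 0.397 CPM on day 0, 0.0563, 0.0725 and 0.0477 CPM on day 6 and no counts in the 3 libraries of day 10. With 3 counts over the group as the floor, and counts taken as independent, Tex101 was at least 9.66-fold lower on day 10 (adjusted p = 0.00277). The calls for Dazl and Mael were the less stable: Dazl was lost without WT day 0 replicate 1, day 10 replicate 2 or day 10 replicate 3 (adjusted p up to 0.078), and Mael without day 0 replicate 1, day 10 replicate 1 or day 10 replicate 2 (up to 0.0738). Without the replicate 1 libraries of WT and CaPS, 3 of the 6 calls remained (Ddx4, Stk31 and Tex101), and Dmrt1, Dazl and Mael had adjusted p of 0.073, 0.0815 and 0.125.

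The synaptonemal complex genes followed another course. Sycp3 stood at 6.53, 2.34 and 2.23 CPM on day 0, 9.23, 8.63 and 7.18 CPM on day 6 and 1.87, 2 and 4.75 CPM on day 10 in WT. Its 3 day 6 libraries lay above all 6 others, but the change on day 6 (1.19 ± 0.61, adjusted p = 0.276) was called only with the replicate block (1.35, adjusted p = 0.0477). Sycp1 held 5.4, 4.53 and 3.8 CPM on day 0, 9.4, 3.92 and 5.7 CPM on day 6 and 5.34, 4.04 and 6.7 CPM on day 10, with overlapping groups throughout. Stra8 had 0.772, 1.71 and 0.993 CPM on day 0, 0.113, 0.218 and 0.668 CPM on day 6 and 0, 0 and 0.657 CPM on day 10, a spread too wide for a call (-2.27 ± 1.66, adjusted p = 0.323). Prdm1 went from 10.4, 20 and 17.1 CPM to 10.7, 12.7 and 11.6 CPM on day 6 and to 17.6, 34.6 and 36.8 CPM on day 10. This rise from day 0 missed the threshold (0.91 ± 0.35, adjusted p = 0.053) and passed with the replicate block (0.92, adjusted p = 0.0112). The summed level of 14 endoderm genes, a lineage where PRDM1 is also active, rose over the same days from 11.3 to 39.2 CPM on day 0 to 277 to 764 CPM on day 10, and its part in the Prdm1 values was not tested.

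Most of these falls were also called from day 6, as the plot of embryoid body levels shows. Between days 6 and 10 in WT (a comparison added after the data were seen), 6 members were called, with a background of 16.2%: Mael (-3.80 ± 0.81, adjusted p = 0.00161), Stk31 (-3.30 ± 0.70), Dazl (-3.17 ± 0.73), Ddx4 (-3.08 ± 0.54) and Dmrt1 (-2.76 ± 0.57) fell, and Prdm1 rose (1.34 ± 0.36, adjusted p = 0.00939). All 6 were called in each of the 6 refits that left out a library, and Sycp3 was called in addition with the replicate block (-1.62, adjusted p = 0.0171; 0.0901 without it). Fibroblast genes had a summed level of 27.1 to 84.5 CPM on day 6 and 185 to 301 CPM on day 10, and their part in the members' changes was not tested. The 14 naive pluripotency genes fell over the same time, from 702 to 1270 CPM in sum on day 6 to 103 to 357 CPM on day 10, and their part in the fall of the germ cell genes was not tested.

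**Figure D2:**
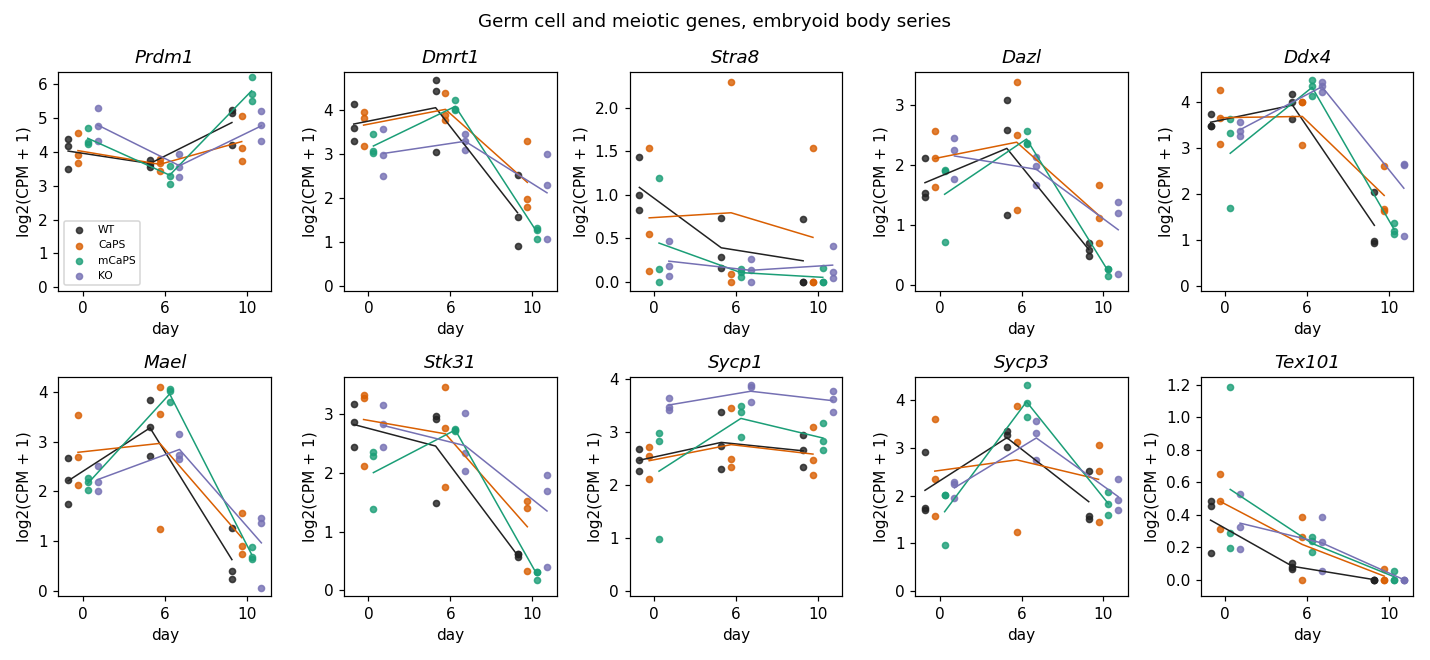
Level of each member in the embryoid body series, as log2(CPM + 1) on the y axis against day (x axis, days as categories), 1 panel per gene. Points are single libraries (3 per group) and lines join the group means of WT, CBX7-CaPS, CBX7-mCaPS and CBX7 KO. Ddx4, Mael, Stk31, Dazl and Dmrt1 are lowest on day 10 in WT, and Sycp1 is highest in the line labelled KO.

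Stk31 was called lower on day 10 in each of the other lines as well. In CaPS, 4 members were lower on day 10 than on day 0 (background 26.7%, and 12.1% called lower): Ddx4 (-1.97 ± 0.52), Mael (-2.48 ± 0.77), Stk31 (-2.49 ± 0.66) and Tex101 (-4.57 ± 1.33). In mCaPS, 7 members were called (background 36.3%), with Stk31 (-4.02 ± 0.73), Dazl (-3.68 ± 0.76), Dmrt1 (-2.59 ± 0.57), Ddx4 (-2.51 ± 0.53), Mael (-2.36 ± 0.77) and Tex101 (-4.78 ± 1.21) lower and Prdm1 higher (1.46 ± 0.36). Tex101 had 1, 0 and 0 counts on day 10 in CaPS and 0, 0 and 2 in mCaPS. Both lie under the floor of 3 counts, so the sizes of its changes are uncertain. Without mCaPS day 0 replicate 3, its change in mCaPS was -3.58. Prdm1 counted 25.1, 17.7 and 18.5 CPM on day 0, 11.1, 8.77 and 7.34 CPM on day 6 and 73.1, 51.4 and 44.2 CPM on day 10 in this line, with no overlap between days. The endoderm sum of mCaPS was 40.3 to 71.7, 39.3 to 48.9 and 250 to 403 CPM on these days. In the line labelled KO, 3 members were called, all lower (background 25.3%, and 9.87% called lower): Dazl (-1.80 ± 0.67, adjusted p = 0.047), Stk31 (-1.76 ± 0.63, adjusted p = 0.0388) and Tex101, which had no counts on day 10 and was at least 18.6-fold lower on the same floor. Replicate 1 of day 10 was the lowest there, with 0.125 CPM of Dazl against 1.61 and 1.29 CPM and 0.312 CPM of Stk31 against 2.25 and 2.89 CPM. Both calls were lost without day 10 replicate 1 or day 0 replicate 2 or 3, Dazl also without day 10 replicate 3 (adjusted p up to 0.191) and Stk31 without day 10 replicate 2 (up to 0.174). CaPS-R had 4 calls of 9 members tested (background 21.5%), with Mael (-2.27 ± 0.46), Stk31 (-2.25 ± 0.59) and Ddx4 (-1.41 ± 0.32) lower and Prdm1 higher (1.09 ± 0.26). Mael lost its call without CaPS day 0 replicate 1 or day 10 replicate 2 or 3 (adjusted p up to 0.0853) and without mCaPS day 10 replicate 1 or 2 (up to 0.0627). In CaPS-R, Stk31 lost it without day 10 replicate 3 (0.0548) and Prdm1 without that library or day 0 replicate 2 (0.0625).

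Sycp3 peaked on day 6 in mCaPS. It rose from 3.02, 3.06 and 0.958 CPM to 19, 14.5 and 11.5 CPM and returned to 2.54, 3.23 and 2.01 CPM on day 10. The rise (2.60 ± 0.64, adjusted p = 0.00742) and the fall after it (-2.53 ± 0.63, adjusted p = 0.00281) were both called, and day 6 did not overlap the other days. Without the mCaPS day 0 library of replicate 3, the one richest in Rn45s, the rise was 2.26 with adjusted p = 0.0501. In mCaPS on day 6, 2 members were called, Sycp3 and Prdm1 (-1.18 ± 0.36), with a background of 10.7%. In the line labelled KO, Prdm1 was the 1 member called on day 6 (-1.30 ± 0.36; background 7.25%), and in CaPS none was (background 6.01%; 0 at an unadjusted p under 0.05 by edgeR and 0 by DESeq2). CaPS-R had 2 calls on day 6 (background 11.2%): Sycp3 rose from 8.73, 17.4 and 15.7 CPM to 25.5, 46.7 and 48 CPM (1.51 ± 0.33, adjusted p = 0.0104), and Stra8 fell from 1.89, 4.83 and 3.47 CPM to 0.0793, 0 and 0.121 CPM (adjusted p = 0.0271). Sycp3 lost its call in CaPS-R without day 6 replicate 2 or 3 (0.0613), and Stra8 without any library but day 0 replicate 1 (up to 0.107). The Prdm1 calls of day 6 were lost without mCaPS day 0 replicate 1 or any mCaPS day 6 library (up to 0.126), and without KO day 0 replicate 3 or KO day 6 replicate 2 or 3 (up to 0.168).

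From day 6 to day 10, mCaPS had 8 members called (background 29.1%), from Dazl (-4.71 ± 0.78) and Stk31 (-4.80 ± 0.74) to Prdm1 (2.63 ± 0.37), of which Tex101 alone lost its call in a refit (without day 10 replicate 1 or 2, adjusted p up to 0.0878). CaPS had 3 (Ddx4, Mael and Stk31, log2 -2.00, -3.05 and -2.31; background 7.79%). With the replicate block, which fits these libraries, those 3 were lost (adjusted p = 0.0838 for Ddx4, 0.0595 for Mael and 0.138 for Stk31) and Dmrt1 was called (-1.92, adjusted p = 0.0493). None of the 3 was called in every refit that left out a library. Without CaPS day 6 replicate 3, where Rn45s took 63% of counts, the 3 were called and Dazl in addition (-2.36, adjusted p = 0.0223). The line labelled KO had 4 (Ddx4, Mael, Tex101 and Prdm1; background 9.07%). The replicate block took Mael from these (adjusted p = 0.104) and added Sycp3 (-1.49, adjusted p = 0.0317), and Tex101 was too low to be tested in that fit. In refits, Ddx4 and Tex101 stayed called, Mael was lost without any day 6 library or day 10 replicate 1 or 2 (up to 0.115), and Prdm1 without day 6 replicate 2 or 3 or day 10 replicate 1 or 2 (up to 0.135). Tested directly, the change from day 0 to day 10 was not called different from WT for any member in CaPS, mCaPS or the line labelled KO (0 of 10 each by edgeR and by DESeq2, and 0 at an unadjusted p under 0.05; backgrounds 0%, 0% and 0.00562%).

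Other germ cell genes were read from gene lists. On day 10 of WT embryoid bodies, where 29.2% of all genes were called and 14.5% called lower, 10 of 14 germ cell precursor genes were lower and none higher, 9 of 27 meiotic chromosome genes were lower and 1 higher, 10 of 19 piRNA and germ granule genes were lower and 1 higher, and 9 of 21 genes of germline commitment and gametogenesis were lower and 2 higher. Median log2 changes of these lists were -2.13, -1.26, -1.94 and -1.94, against -0.02 over all genes. By the rule for named genes, the lowest were the meiotic chromosome gene Hormad1 (-5.98 ± 1.11), the piRNA gene Piwil4 (-5.01 ± 1.11) and Zfp42 (-4.98 ± 0.76). The highest were the retinoic acid targets Hoxb1 (6.95 ± 1.40) and Cyp26a1 (5.22 ± 1.16) and the spermatogonial factor Zbtb16 (5.28 ± 1.15), which other lineages also use. The precursor list shares Prdm14, Dppa3 and Nanog with the naive pluripotency list, of whose 14 genes 13 fell, and the commitment list shares Zfp42 with it. The piRNA genes Piwil2 (-3.46 ± 0.66), Tdrd12 (-4.20 ± 0.70), Mov10l1 (-2.38 ± 0.52) and Tdrd1 (-1.37 ± 0.35), all partners of the germ granule proteins, moved in the same direction as Ddx4 and Mael. These 4 genes were picked after their values were seen.

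Of 23 genes that repress germ cell genes or modify DNA methylation, 7 were lower and 2 higher on day 10, against the same background of 29.2% called and 14.5% lower, with a median of -0.42. Among the PRC1.6 subunits, L3mbtl2 (-1.58 ± 0.32), Pcgf6 (-0.96 ± 0.30) and Tfdp1 (-0.83 ± 0.25) fell, E2f6 (0.86 ± 0.27) and Yaf2 (1.61 ± 0.32) rose, and Mga (-0.14) and Max (-0.60) did not pass. The DNA methylation cofactor Dnmt3l fell by 4.84 on the log2 scale (SE 0.85), as did the demethylase gene Tet1 by 2.72 (SE 0.50). These genes were named for their role, outside the rule and with their values known.

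The second course was the neural progenitor route with retinoic acid. Stra8 was called higher on day 6 in each of the 5 lines. In WT it went from 1.53, 1.04 and 1.38 CPM to 164, 91.5 and 147 CPM on day 6 and 17.8, 23.1 and 54.3 CPM on day 8. Day 6, day 8 and day 0 did not overlap. The log2 change was 6.68 ± 0.93 on day 6 (adjusted p = 3.13e-06) and 4.60 ± 0.86 on day 8 (adjusted p = 6.19e-05). At 91.4 ± 25.9 RPKM on day 6, WT Stra8 stood far above every other member at any WT day, the next being Dmrt1 on that day at 11.2 ± 4.37 RPKM. Stra8 was the 1 member of 10 called in WT on day 6, where 37.3% of all genes were called.

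Stra8 in the line labelled KO went from 0.983, 0.904 and 0.669 CPM to 171, 140 and 140 CPM on day 6 (7.46 ± 0.96). In CaPS it went from 0.596, 0.698 and 1.87 CPM to 128, 23.5 and 13.5 CPM (5.72 ± 0.90), with replicate 1 at the WT level and the other two far below it. Without that library the change was 4.15. In mCaPS Stra8 went from 0.563, 0.615 and 2.34 CPM to 12.6, 49.8 and 18.8 CPM (4.55 ± 0.85), all below the WT libraries of that day. The difference from WT on day 6 was -2.31 ± 0.74 and missed the threshold (adjusted p = 0.0914), while DESeq2 called it (adjusted p = 0.0242), as did edgeR without mCaPS day 6 replicate 2 (-3.10, adjusted p = 0.0431). Neural genes moved with this pattern: their summed level on day 6 was 500 to 718 CPM in WT, 90.3 to 263 CPM in mCaPS, 109 to 630 CPM in CaPS and 502 to 588 CPM in the line labelled KO. Of 10 neural genes, 3 were lower in mCaPS (background 2.22%). Endoderm genes went the other way, with sums of 143 to 259, 569 to 1150, 158 to 1130 and 80.1 to 155 CPM in the same order. Fibroblast genes summed to 85.3 to 199, 374 to 1390, 123 to 750 and 105 to 173 CPM. The part of any of these lists in the Stra8 values was not tested. CaPS-R had 1.06, 6.3 and 7.93 CPM of Stra8 on day 0, 48.8, 103 and 111 CPM on day 6 and 6.65, 11.5 and 1.56 CPM on day 8, so that its day 8 libraries overlapped day 0 (0.36 ± 0.80, adjusted p = 0.736).

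**Figure D3:**
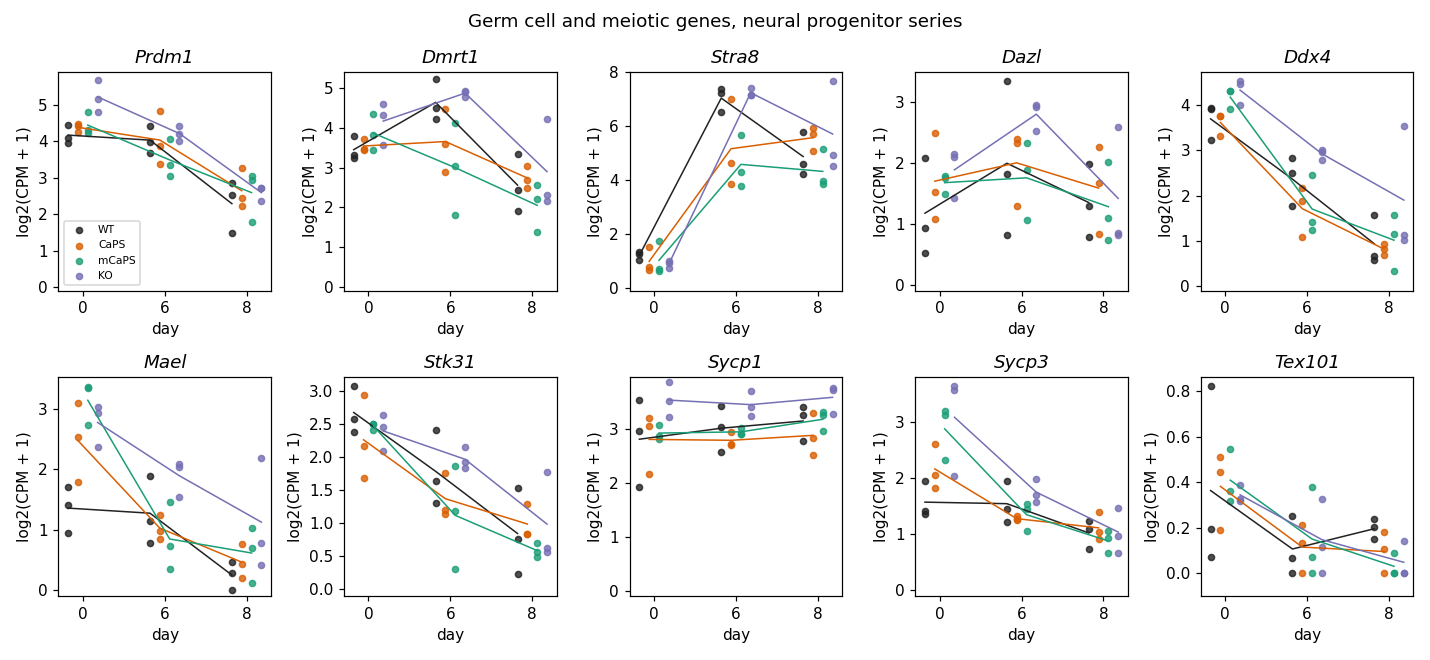
Level of each member in the neural progenitor series, as log2(CPM + 1) on the y axis against day (x axis, days as categories), 1 panel per gene. Points are single libraries (3 per group) and lines join the group means of WT, CBX7-CaPS, CBX7-mCaPS and CBX7 KO. Stra8 peaks on day 6 in WT, at 91.5 to 164 CPM, and replicate 3 of the line labelled KO is high on day 8.

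The retinoic acid response was strong around Stra8. Of 15 response genes, 12 were higher and 1 lower in WT on day 6, and 13 were higher and 1 lower on day 8, with medians of 3.48 and 4.79 on the log2 scale. Hoxb1 (6.57 ± 0.62), the receptor gene Rarb (6.70 ± 0.38) and Cyp26b1 (6.84 ± 0.70), whose enzyme breaks retinoic acid down and keeps the fetal testis out of meiosis, were the highest genes of the lists on day 8. Of 26 meiotic chromosome genes, 4 rose and 3 fell on day 6, a smaller share than the 37.3% of all genes called, with a median of -0.14. The 4 that rose were Rec8 (2.26 ± 0.43), the cohesin of meiosis, and Hfm1 (2.51 ± 0.39), Msh5 (2.33 ± 0.41) and Prdm9 (1.75 ± 0.46), which serve recombination. They were named outside the rule and with their values known, and the 3 that fell are not named. On day 8, 4 were higher and 12 lower (median -1.24), where 52.4% of all genes were called and 24.9% called lower.

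The germ granule genes fell on this route too. On day 8 in WT, 5 of 10 members were called, no larger a share than the 52.4% of all genes. Of these members 1 was higher and 4 were lower, where 24.9% of all genes were called lower. Ddx4 went from 8.34, 14.1 and 14.4 CPM to 4.62, 2.39 and 6.14 CPM on day 6 and 0.593, 0.485 and 1.95 CPM on day 8, without overlap between the days (day 8: -3.62 ± 0.74, adjusted p = 0.000178). Mael had 0.936, 2.26 and 1.67 CPM on day 0, 0.707, 1.22 and 2.73 CPM on day 6 and 0, 0.215 and 0.375 CPM on day 8 (-3.07 ± 0.93, adjusted p = 0.00673). Stk31 went from 4.93, 7.36 and 4.2 CPM to 1.47, 2.11 and 4.29 CPM and then 0.178, 0.7 and 1.88 CPM (-2.60 ± 0.70, adjusted p = 0.00294). For Ddx4, Mael and Stk31 the day 8 libraries lay below those of day 0. Prdm1 moved opposite to embryoid bodies, from 14.5, 16.1 and 21 CPM on day 0 and 20.6, 14.7 and 11.9 CPM on day 6 to 1.78, 6.22 and 4.8 CPM on day 8 (-2.01 ± 0.44, adjusted p = 0.000371). These 5 calls of day 8 against day 0 held in every refit without a library.

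Dmrt1 took a different path. It counted 8.51, 8.89 and 12.9 CPM on day 0, 17.6, 21.5 and 36.2 CPM on day 6 and 2.73, 4.41 and 9.12 CPM on day 8. Day 6 lay above both other days, the rise was not called (1.31 ± 0.58, adjusted p = 0.0743), and the fall from day 6 to day 8 was (-2.22 ± 0.60, adjusted p = 0.0217). In that step, which was added after the data were seen, 3 members were called in WT (background 7.34%), the others being Mael (-3.00 ± 0.93, adjusted p = 0.0435) and Prdm1 (-1.88 ± 0.44, adjusted p = 0.00848). Prdm1 stayed called in every refit, Dmrt1 was lost without day 6 replicate 3 or day 8 replicate 1 or 2 (up to 0.117), and Mael without day 6 replicate 2 or 3 or day 8 replicate 1 or 2 (up to 0.218). Dazl spread from 0.425 to 3.22 CPM on day 0, 0.761 to 9.22 CPM on day 6 and 0.712 to 2.93 CPM on day 8, and was not called (on day 6 adjusted p = 0.185, and 0.0465 without day 0 replicate 2). Sycp1 stayed between 2.81 and 10.7 CPM, Sycp3 between 0.673 and 2.86 CPM and Tex101 between 0 and 0.766 CPM over the WT libraries, with no call. Sycp3 on day 6 (1.33, 1.74 and 2.86 CPM) overlapped day 0 (1.66, 1.56 and 2.83 CPM).

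The calls of the other lines on day 6 included germ granule genes, and whether these changes differ from those of WT was not tested for that day. CaPS had 4 members called (background 39.2%), with Stra8 higher and Ddx4 (-2.19 ± 0.69), Mael (-2.22 ± 0.83) and Sycp3 (-1.33 ± 0.47) lower. Without CaPS day 6 replicate 1, Ddx4 (-2.53, adjusted p = 0.017) and Stra8 were called, and Mael (0.0528) and Sycp3 (0.0599) were not. Leaving out other CaPS libraries also ended calls, with adjusted p up to 0.064 for Ddx4 (without day 6 replicate 3) and up to 0.121 for Mael and for Sycp3. mCaPS had 5 (background 39.2%), with Stra8 higher and Mael (-3.17 ± 0.85), Ddx4 (-2.78 ± 0.70), Sycp3 (-2.07 ± 0.47) and Stk31 (-1.72 ± 0.67) lower, and of these Stk31 was lost without any library but day 6 replicate 2 (up to 0.181). The line labelled KO had 2 (background 28.9%), Stra8 higher and Sycp3 lower (-1.83 ± 0.46). CaPS-R had 6 of 9 (background 37.2%), with Stra8 higher (4.10 ± 0.86) and Ddx4 (-5.11 ± 0.58), Mael (-4.45 ± 0.94), Sycp3 (-3.74 ± 0.55), Stk31 (-3.15 ± 0.71) and Dmrt1 (-2.40 ± 0.78) lower, of which Dmrt1 was lost without replicate 2 or 3 of either day (up to 0.0983).

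By day 8, 5 to 8 members were called in every line, where 43.3% to 52.4% of all genes were called. CaPS had 6 called (background 48.6%), as in WT with Sycp3 in addition (-1.59 ± 0.46), and mCaPS had 8 (background 46.2%), adding Dmrt1 (-2.07 ± 0.60), Sycp3 (-2.96 ± 0.49) and Tex101 (-3.98 ± 1.60). Tex101 had 0, 0 and 2 counts in the mCaPS libraries of day 8, under the floor of 3 counts. The line labelled KO had 6 (background 43.3%): Stra8 rose (6.62 ± 0.93), and Sycp3 (-2.94 ± 0.49), Prdm1 (-2.89 ± 0.45), Ddx4 (-2.18 ± 0.68), Mael (-1.99 ± 0.81) and Stk31 (-1.92 ± 0.69) fell. In that line replicate 3 of day 8 stood apart, with 201 CPM of Stra8 against 22.2 and 29.4 CPM and with 10.7 CPM of Ddx4 against 1.18 and 1.04 CPM. Mael, Dmrt1, Dazl and Stk31 were highest in the same library. The summed neural genes of this group ran from 525 to 1520 CPM and the naive genes from 38.5 to 107 CPM, and their part in these values was not tested. Without replicate 3 of day 8, 8 members were called, and the changes became -4.12 for Ddx4, -3.51 for Mael, -3.09 for Stk31, -2.27 for Dmrt1 and 4.92 for Stra8. Without replicate 1 or 2 of that day, the calls of Ddx4, Mael and Stk31 were lost (up to 0.0569, 0.168 and 0.1). In CaPS, Stk31 was lost without day 0 replicate 2 or day 8 replicate 3 (up to 0.0937), and in mCaPS Tex101 without day 0 replicate 1 or day 8 replicate 1 or 2 (up to 0.11). CaPS-R had 6 of 9 called, all lower (background 47.8%, and 22.7% called lower): Ddx4 (-7.60 ± 0.67), Stk31 (-6.51 ± 0.89), Dmrt1 (-5.30 ± 0.92), Sycp3 (-4.65 ± 0.57), Prdm1 (-1.80 ± 0.34) and Mael, which went from 6.29, 12 and 8.46 CPM to no counts and was at least 187-fold lower on the floor of 3 counts. From day 6 to day 8, Prdm1 was the 1 member called in CaPS (-1.60 ± 0.43, background 3.18%, adjusted p = 0.189 with the replicate block, which fits these libraries) and in the line labelled KO (-1.80 ± 0.43, background 5.01%, lost without day 6 replicate 2 at adjusted p = 0.0655), and none was in mCaPS (background 0.264%). Without KO day 8 replicate 3, Dmrt1, Ddx4, Stk31 and Stra8 were called lower in that line as well (adjusted p = 0.0039, 0.0131, 0.0381 and 0.0341).

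**Figure D4:**
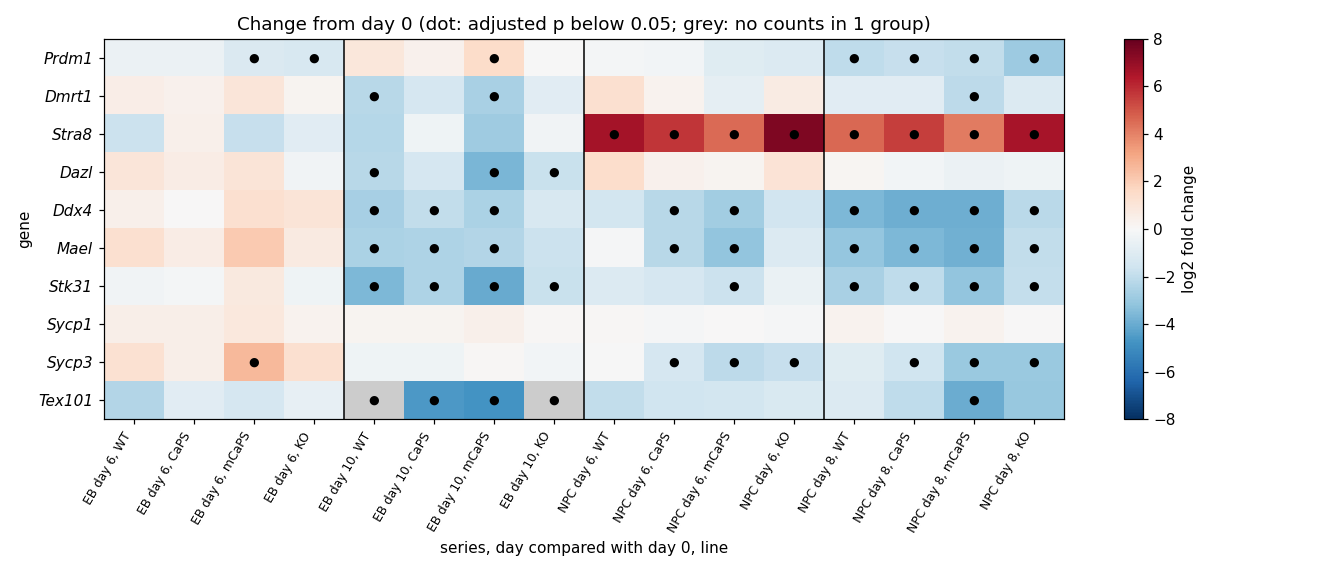
Log2 fold change from day 0 of each member (rows) in WT, CBX7-CaPS, CBX7-mCaPS and CBX7 KO (columns), on days 6 and 10 of embryoid bodies and days 6 and 8 of neural progenitors. Colour gives the change, a dot marks an adjusted p under 0.05, and grey marks a comparison in which a group had no counts. Stra8 is called higher in the neural progenitor columns only, and Ddx4, Mael and Stk31 are called lower on the last day of both courses in WT, CaPS and mCaPS.

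The other lists are given for day 8 in WT, where 52.4% of all genes were called and 24.9% called lower. Of 14 germ cell precursor genes 12 were lower and 1 higher (median -3.09), of 18 piRNA and germ granule genes 12 were lower and 3 higher (median -2.78), and of 23 commitment and gametogenesis genes 8 were lower and 2 higher (median -1.63), against 0.05 over all genes. Gtsf1 had no counts on day 8, and Tcl1 (-7.81 ± 0.83) and the egg coat gene Zp3 (-7.77 ± 1.40) followed as the lowest. Of the 23 regulators 13 were lower and 5 higher, with L3mbtl2 at -2.31 ± 0.25, Pcgf6 at -0.71 ± 0.17, Max at -0.55 ± 0.17, Mga at -0.49 ± 0.21, E2f6 at 1.09 ± 0.17 and Dnmt3l at -7.32 ± 0.82. All 14 naive pluripotency genes fell, from 3030 to 3210 CPM in sum to 31.9 to 91 CPM, while 9 of 10 neural genes rose, from 134 to 343 CPM to 1340 to 2340 CPM. The part of either group in the members' changes was not tested.

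The routes were then compared directly. The change from day 0 to day 6 was set between neural progenitors and embryoid bodies in a fit of 72 libraries, for which day 0 cells were counted separately on each route. In WT, Stra8 was the 1 member that differed (8.35 ± 1.64 on the log2 scale, adjusted p = 0.000619; background 5.97%). Stra8 also differed in CaPS (background 9.54%), in mCaPS (background 20.4%) and in the line labelled KO (background 7.93%), mCaPS in addition differed in Sycp3, Ddx4 and Mael, and the line labelled KO in Sycp3. Retinoic acid, the culture format and the separate handling of the 2 routes cannot be told apart in this comparison. In mCaPS and the line labelled KO, the day 0 cells of the 2 routes also differed in fibroblast genes. These summed to 2070 to 12100 and 129 to 232 CPM in mCaPS, and to 1180 to 1790 and 100 to 155 CPM in the other line. Their part was not tested.

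The design also asks whether the form of CBX7 changed these genes. Between CaPS and WT, 0 of the 10 members were called on each of the 3 days of either route, by edgeR's adjusted test, at an unadjusted p under 0.05 and by DESeq2. Across all genes the background was 0%, 0% and 0.00562% in embryoid bodies and 0%, 0% and 0.0112% in neural progenitors, so that hardly any gene separated these lines in edgeR's fit without a block. Over all genes, DESeq2 called 0, 77 and 74 in embryoid bodies and 9, 124 and 226 in neural progenitors. The largest member differences carried wide errors, such as Mael on day 0 of neural progenitors (1.61 ± 0.80). With the replicate block, which fits that comparison, Mael was called there (1.58, adjusted p = 0.00569), from 2.47, 7.61 and 4.81 CPM in CaPS and 0.936, 2.26 and 1.67 CPM in WT, groups that did not overlap. In that blocked fit 627 of 15448 genes were called. The blocked fits of days 6 and 8 and of the embryoid body days called 0 genes.

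In embryoid bodies mCaPS had no member called against WT on days 0, 6 and 10 (backgrounds 0.916%, 0.54% and 0.708%; 0, 0 and 2 at an unadjusted p under 0.05, and 0 by DESeq2). The line labelled KO had none either (0.641%, 0.646% and 0.877%; 2, 1 and 3 unadjusted, and 0 by DESeq2). Sycp1 was the member in which the KO-labelled libraries stood apart on every day. It counted 10.1, 11.5 and 9.78 CPM on day 0, against 5.4, 4.53 and 3.8 CPM in WT. On days 6 and 10 the line held 10.9, 13.9 and 13.5 CPM and 11.4, 12.7 and 9.44 CPM, above all WT libraries of those days. The differences of 1.20 ± 0.43, 1.02 ± 0.43 and 1.06 ± 0.43 had adjusted p of 0.406, 0.692 and 0.384. In neural progenitors the same line had 8.45 to 13.7, 8.54 to 12.1 and 8.76 to 12.6 CPM, and overlapped WT on each day.

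Undifferentiated cells of the neural progenitor course differed in Sycp3. WT counted 1.66, 1.56 and 2.83 CPM, mCaPS 7.65, 8.11 and 3.99 CPM and the line labelled KO 10.8, 11.5 and 3.09 CPM. Neither line overlapped WT, and the differences were 1.71 ± 0.46 for mCaPS (adjusted p = 0.0376, background 3.02%) and 2.07 ± 0.47 for the line labelled KO (adjusted p = 0.00852, background 5.52%). Sycp3 was the 1 member called in each. The call in mCaPS was lost without WT replicate 1 or 2 or mCaPS replicate 1 or 2 (adjusted p up to 0.197), and that in the line labelled KO without WT replicate 1 or 2 or KO replicate 1 or 2 (up to 0.062). Fibroblast genes moved with this difference: 14 of 16 were lower in mCaPS and 16 of 16 in the line labelled KO, with sums of 532 to 4620 CPM in WT, 129 to 232 CPM in mCaPS and 100 to 155 CPM in the other line, and their part in the Sycp3 values was not tested. At day 0 of the embryoid body course, Sycp3 showed no such difference (-0.57 ± 0.62 and -0.06 ± 0.60). Among list genes, the retinoic acid handling genes Crabp1 (-3.05 ± 0.63 and -3.15 ± 0.64) and Cyp26b1 (-2.52 ± 0.60 and -2.78 ± 0.61) were lower in both lines. In the line labelled KO, Rhox5, a homeobox gene of the reproductive cluster, was lower (-2.05 ± 0.59) and Meioc, which sustains meiotic prophase, was higher (1.97 ± 0.47).

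Later days gave no further call. On days 6 and 8, mCaPS had none (backgrounds 2.22% and 18.5%; 2 and 0 unadjusted, 1 and 0 by DESeq2) and the line labelled KO had none (0.0281% and 0.0505%; 0 and 2 unadjusted, 0 and 1 by DESeq2). On day 8 of mCaPS, where neural genes were lower in 7 of 10 cases (88.2 to 349 CPM in sum, against 1340 to 2340 CPM in WT), Stra8 counted 13.3, 34.5 and 14.7 CPM against 17.8, 23.1 and 54.3 CPM in WT, which overlapped. The change from day 0 to day 8 was called different from WT for no member in CaPS, mCaPS or the line labelled KO (backgrounds 0%, 9.49% and 0.337%; 0, 1 and 1 unadjusted, and 0, 1 and 0 by DESeq2). Sycp3 in mCaPS came nearest, at -2.01 ± 0.66 with adjusted p = 0.0501, and was called without WT day 0 replicate 3, mCaPS day 0 replicate 3 or WT day 8 replicate 2 (down to 0.0353).

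The CaPS and mCaPS forms, which differ by the mutation of the added domain, were set against each other. They separated on day 10 of embryoid bodies, where 3 members were called (background 3.18%). Dazl counted 1.17, 0.625 and 2.17 CPM in CaPS and 0.104, 0.202 and 0.193 CPM in mCaPS, without overlap (2.98 ± 0.76, adjusted p = 0.0219). Stk31 counted 1.64, 0.25 and 1.87 CPM in CaPS and 0.243, 0.121 and 0.232 CPM in mCaPS, also without overlap (2.63 ± 0.71, adjusted p = 0.0335). Prdm1 was the reverse, at 16.5, 32.6 and 12.2 CPM in CaPS and 73.1, 51.4 and 44.2 CPM in mCaPS (-1.46 ± 0.36, adjusted p = 0.0174). None of the 3 was called in every refit: each was lost without CaPS replicate 3, mCaPS replicate 1 or mCaPS replicate 2, Stk31 and Prdm1 also without CaPS replicate 1, and Dazl and Stk31 without mCaPS replicate 3 (adjusted p up to 0.2 for Dazl, 0.239 for Stk31 and 0.183 for Prdm1). Dmrt1 (1.83 ± 0.56, adjusted p = 0.0714) was called without CaPS replicate 2 (0.0339). WT held 0.392 to 0.623 CPM of Dazl, between the 2 lines, and 0.471 to 0.534 CPM of Stk31, above mCaPS and within the range of CaPS. Of the other lists, 8 of 14 naive pluripotency genes and 7 of 10 neural genes were higher in CaPS and none lower. Their sums were 189 to 671 CPM and 163 to 1080 CPM in CaPS, against 105 to 170 CPM and 112 to 150 CPM in mCaPS, and their part in the members' difference was not tested. Among germ cell list genes, Tcl1 (4.20 ± 0.82), Sohlh2 (3.77 ± 1.04), Zp3 (3.59 ± 1.05), Dnmt3l (3.58 ± 0.81) and Dmrtb1 (3.57 ± 0.91) had the largest differences, all higher in CaPS. On days 0 and 6 of embryoid bodies and on days 0, 6 and 8 of neural progenitors no member was called (backgrounds 0.793%, 1.12%, 2.1%, 0.0112% and 1.59%; 0 unadjusted and 0 by DESeq2 on each).

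CaPS-R was compared with WT over the genes its tables share, with line and table not told apart. In embryoid bodies Sycp3 was higher on day 0 (1.90 ± 0.57, background 9.7%), day 6 (2.21 ± 0.57, background 8.86%) and day 10 (1.60 ± 0.57, background 17.3%). On this scale CaPS-R held 8.73, 17.4 and 15.7 CPM on day 0 against 6.59, 2.44 and 2.36 CPM in WT, with no overlap. On day 10, 4 members were called, with Ddx4 (1.97 ± 0.50) and Stk31 (1.95 ± 0.70) higher and Sycp1 lower (-1.77 ± 0.57) besides Sycp3. In neural progenitors Sycp3 (2.58 ± 0.48) and Mael (2.44 ± 0.84) were higher on day 0 (background 22.1%). Dmrt1 (-2.45 ± 0.68) and Ddx4 (-2.25 ± 0.76) were lower on day 6 (background 14.6%). Dmrt1 (-3.08 ± 0.76), Dazl (-4.37 ± 1.33), Ddx4 (-2.56 ± 0.89) and Stk31 (-3.01 ± 0.91) were lower on day 8 (background 14%). The CaPS-R libraries of that day held 6, 26 and 4 counts of Dmrt1 and 4, 0 and 0 of Dazl. Ddx4 had 2, 2 and 6 counts there and Stk31 2, 4 and 0, so these calls lie near the floor of 3 counts. Sycp3 on day 0 and Dmrt1 on day 8 of neural progenitors were called in every refit without a library. Each other CaPS-R call against WT was lost in at least 1, with adjusted p up to 0.132, 0.0541 and 0.179 for Sycp3 on embryoid body days 0, 6 and 10, 0.0517 for Ddx4 on day 10 (without CaPS-R replicate 2) and 0.299 for Ddx4 on day 8.

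The members did not move as 1 block. Over the 24 group means of WT, CaPS, mCaPS and the line labelled KO on both routes, Pearson's r of log2(CPM + 1) was 0.93 for Ddx4 and Mael, 0.93 for Ddx4 and Stk31, 0.88 for Sycp3 and Mael, 0.87 for Dmrt1 and Dazl and -0.67 for Sycp3 and Stra8. The groups share cell lines, days and sequencing tables, and r is given as a description only. Among 17345 genes, those most like Ddx4 were Syt9 (0.98), Abcc4 (0.97) and the germ granule gene Tdrd1 (0.96), and those most like Stra8 were Galntl6 (0.98), BC030500 (0.97) and Hoxc5 (0.97). Dmrt1 was most like Sohlh2 (0.91), Dazl and Dmd (0.87 each), and Dazl was most like Sohlh2 (0.92), Dmrt1 (0.87) and Smc1b (0.85). Sycp3 was followed most closely by Gm9805 (0.96), Map7d3 (0.93) and the meiotic gene Mei1 (0.92). The nearest genes were Rhd for Stk31 (0.97), Tpd52 for Mael (0.94), Fam72a for Tex101 (0.93), Nfatc3 for Sycp1 (0.89) and Alpk3 for Prdm1 (0.84).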

How the data were processed

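RNA counts of 90 libraries were analysed. The authors deposited whole-number read counts per gene, unnormalised by their sums, in 4 tables. Per the submitters' processing notes the tools are the counter featureCounts 1.6.3, the aligner STAR 2.7.0, cutadapt 1.14, HOMER 4.10.4 and edgeR, with build mm10; which of them made which table is not given in the sources used here. Libraries were grouped by line, route and day from the labels. Another 9 columns matched no label and were not used. Names that a spreadsheet had turned into dates (23 rows in the embryoid body table, 22 in each CaPS-R table) and 1 incomplete last line in each CaPS-R table were dropped.

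Counts were tested with edgeR 4.0.16 (R 4.3.3): filterByExpr, TMM scaling, robust quasi-likelihood fits and Benjamini-Hochberg adjustment over all tested genes, called under 0.05. The fits held 17791 (embryoid bodies), 17818 (neural progenitors), 13057 and 12763 (CaPS-R alone), 15379 and 15334 (CaPS-R with the other lines) and 18407 genes (both routes). Tex101 did not pass the filter in CaPS-R alone. SE is the log2 change divided by the square root of F. Levels are CPM, and RPKM uses the exon lengths deposited with the counts. A floor of 3 counts bounds groups without counts and covers counting error only. It takes counts as independent and the level of the other group as exact. Scripts were tested on simulated data with 200 changed genes. Gene overlaps come from the gene positions deposited with the counts and promoters from RefSeq.

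Alternatives were DESeq2 1.42.0, no filter, Rn45s left out, a replicate block (fitted on the compared groups alone, with their own filter) and leaving out libraries. Same-numbered libraries correlated (r over 0.1 for all 3 numbers, on group deviations) in 16 of 58 comparisons, mainly WT and CaPS in embryoid bodies and CaPS against WT on both routes; there the blocked value stands beside a result it changes. The members and lists were chosen with earlier results of these data known. The rule for named list genes was the 3 highest and 3 lowest called genes for WT on the last day, and up to 5 called genes for a line comparison.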

Additional observations from a re-analysis of the deposited data

Results flagged for a closer look

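The change from day 0 to day 6 differed between neural progenitors and embryoid bodies for the following members (edgeR's quasi-likelihood test of the difference, adjusted p over 18407 genes). The difference for Stra8 was 8.35 ± 1.64 on the log2 scale in WT (SE; adjusted p = 0.000619), 5.97 ± 1.66 in CaPS (adjusted p = 0.0149), 5.77 ± 2.09 in mCaPS (adjusted p = 0.0405) and 8.44 ± 1.84 in the line labelled KO (adjusted p = 0.00138). The meiotic chromosome gene Sycp3 differed in the other direction in mCaPS (-4.61 ± 0.79, adjusted p = 1.75e-05) and in the line labelled KO (-3.02 ± 0.77, adjusted p = 0.00676). Ddx4 (-4.00 ± 0.86, adjusted p = 0.000479) and Mael (-5.17 ± 1.14, adjusted p = 0.00063) differed in mCaPS, where they had their highest levels on day 6 in embryoid bodies and had fallen by day 6 in neural progenitors. Whether these differences vary between lines was not tested. Day 0 of mCaPS differed between the routes, with mean levels in embryoid bodies and neural progenitors of 7.5 and 17.2 CPM for Ddx4. For Mael they were 3.48 and 8.05 CPM, and for Sycp3 2.35 and 6.58 CPM. Fibroblast genes summed to 2070 to 12100 CPM and 129 to 232 CPM there. The embryoid body group includes the library richest in Rn45s. The part of these day 0 values in the differences was not tested.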

How the results depend on the processing

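Of the 131 calls of members, 1458 recomputed values kept the direction throughout, 1247 stayed past the threshold and 211 did not. With the replicate number as a block, members called changed from 6 to 2 for CaPS-R against WT in embryoid bodies, 3 to 0 for CaPS against mCaPS there, 3 to 6 for day 6 against day 0 in CaPS, mCaPS and the KO line there, 6 to 2 for the KO line over the neural progenitor course, 0 to 1, 1 to 2, 1 to 0 and 8 to 4 for CaPS, mCaPS, KO and CaPS-R against WT on that route, and 1 to 2 for WT between routes. Of these, the numbers pair the libraries for CaPS against WT and for CaPS on day 6. Where they do, the block changed no call of a member it tested other than those given with the results; Tex101, called on day 10 of embryoid bodies in WT, CaPS and KO, was too low for the filter in the blocked fits and has no value there. DESeq2 moved the KO line over embryoid bodies from 3 to 5, and in neural progenitors mCaPS against WT from 1 to 3, KO from 1 to 2, CaPS-R from 8 to 14, the lines' time course against WT from 0 to 1 (as did leaving out Rn45s) and the last day against day 6 from 5 to 8. Without replicate 1 of WT and CaPS in embryoid bodies (added after seeing the data), WT over time went from 6 to 3 and the KO line from 3 to 5; this does not apply to neural progenitors or to CaPS-R alone. Leaving out 1 library at a time gave 1 to 3 for the KO line over embryoid bodies, 2 to 5 for CaPS-R, 3 to 6 for CaPS-R against WT, 0 to 4 for CaPS against mCaPS and 0 to 2 for CaPS-R on day 6. In neural progenitors it gave 3 to 8 for the KO line over time, 0 to 3 for mCaPS, 0 to 1 for KO and 5 to 10 for CaPS-R against WT, 0 to 1 for the time course and 3 to 9 for the last day against day 6. It was not run for the routes in CaPS, mCaPS and KO. The floor of 3 counts (0.039 to 0.51 CPM in embryoid bodies) limits what can be said of Tex101 and of late Stra8 there.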
